A study of Mus musculus with 6 samples.

Results

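The genes described here are 10 imprinted genes that control embryonic growth, measured in the distal mandible (the end of the lower jaw primordium) of single mouse embryos at E10.75. The rule named them by symbol: Igf2, Dlk1, Peg3, Mest and Plagl1, which are read from the paternal copy, and H19, Igf2r, Meg3, Cdkn1c and Grb10, which are read from the maternal copy. Of the 10 genes, 8 had a row among the 21827 genes listed for each library, and all 8 passed the filter on low values (1 TPM or more in 3 or more libraries). The non-coding RNA genes H19 and Meg3 are not analysed here. The 8 measured genes are thus 5 paternally and 3 maternally expressed ones.

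The study has 6 libraries of polyadenylated RNA, 1 embryo each, from 3 litters. Each litter gave 1 embryo labelled mutant (Msx1f/f;Msx2f/f;Rosa26mTmG/+;Hand2-Cre) and 1 labelled control (Msx1f/+;Msx2f/f;Rosa26mTmG/+;Hand2-Cre). Both labels share the homozygous floxed Msx2, the Hand2-Cre driver and the mTmG reporter, and the labels differ in 1 floxed Msx1 copy. Hand2-Cre acts only in cells that have used Hand2. The fluorescent tissue was dissected and no cell sort is described, so other cells can be included.

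Msx1, the homeobox gene that was targeted, did not follow the labels in litters 2 and 3. In litter 1 its level was 1.90 TPM (a level per transcript length, scaled so that every library has 1 common total) in the mutant-labelled embryo and 84.1 TPM in the control-labelled one. In litter 2 the mutant-labelled embryo had 78.8 TPM against 2.61 TPM, and in litter 3 it had 73.3 TPM against 1.99 TPM. The Msx1 level is a measured value and not a label. Libraries with Msx1 under 10 TPM (labelled mutant of litter 1, labelled control of litters 2 and 3) and over 50 TPM (their littermates) are therefore set side by side as a description, with no test, and the tests are those of the labelled groups and of the authors' deposited table.

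The listed genes summed to 716208 to 735601 TPM per library, and 11929 to 12132 genes reached 1 TPM. TPM keep no record of depth, so the depth behind the values is unknown. All 8 markers of distal jaw mesenchyme, among them Hand2, Hand1 and Dlx5, were present, with a summed level of 949 to 1062 TPM. Of markers of other cells, those of red blood cells summed to 22592 TPM in the mutant-labelled library of litter 1 and 6898 to 9745 TPM in the other 5. In whole tissue, fewer cells of a type and less RNA per cell cannot be told apart.

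Genomic imprinting silences 1 parental copy of a gene by a DNA methylation mark set in the germ line. Many paternally expressed genes promote growth of the embryo and many maternally expressed ones restrain it, and Igf2 with its clearance receptor Igf2r is the textbook pair. The TPM values add both parental copies, so they show how much RNA a gene gave and not from which copy.

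The 8 genes lie on 6 chromosomes (GRCm38, GENCODE M21). Chromosome 7 holds Peg3 (6703892 to 6730431), Igf2 (142650766 to 142666816) and Cdkn1c (143458339 to 143461050). Igf2 and Cdkn1c are 792 kb apart, in neighbouring imprinted domains. The others are Mest on chromosome 6 (30723547 to 30748465), Plagl1 on chromosome 10 (13060504 to 13131694), Grb10 on chromosome 11 (11930508 to 12038683), Dlk1 on chromosome 12 (109452823 to 109463336) and Igf2r on chromosome 17 (12682406 to 12769664). All 8 are annotated as protein-coding. Within annotated overlaps, reads can be shared: Gm49394 covers nearly all of Igf2 on the same strand and was at 0.862 to 3.45 TPM, and Copg2 overlaps the end of Mest on the opposite strand and was at 12.1 to 17.4 TPM. Whether counting used strand is not given in the sources used here.

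Most of these genes gave abundant RNAs, with a mean over 100 TPM for 7 of the 8. Igf2 had the tenth-highest mean level of all listed genes (rank 10), and Mest ranked 95. Peg3, Grb10, Dlk1 and Cdkn1c ranked 174, 182, 213 and 381, Plagl1 ranked 606, and Igf2r ranked 2657. Together the 8 genes held 0.942% to 1.25% of the listed TPM in each library, of which Igf2 alone held 0.518% to 0.764%.

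Over the 6 libraries the means, with SD and n = 6, fell in the order Igf2 (4665 ± 636 TPM), Mest (1248 ± 83.5 TPM), Peg3 (564.5 ± 38.3 TPM), Grb10 (534 ± 30.5 TPM), Dlk1 (458 ± 24.3 TPM), Cdkn1c (240.0 ± 56.8 TPM), Plagl1 (145 ± 27.7 TPM) and Igf2r (36.6 ± 1.38 TPM). Neighbours in this order had ranges that did not overlap, except Peg3 with Grb10 and Cdkn1c with Plagl1. Even in those pairs the first gene was higher in 6 of 6 libraries, by 1.06-fold and 1.65-fold in the means.

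**Figure D1:**
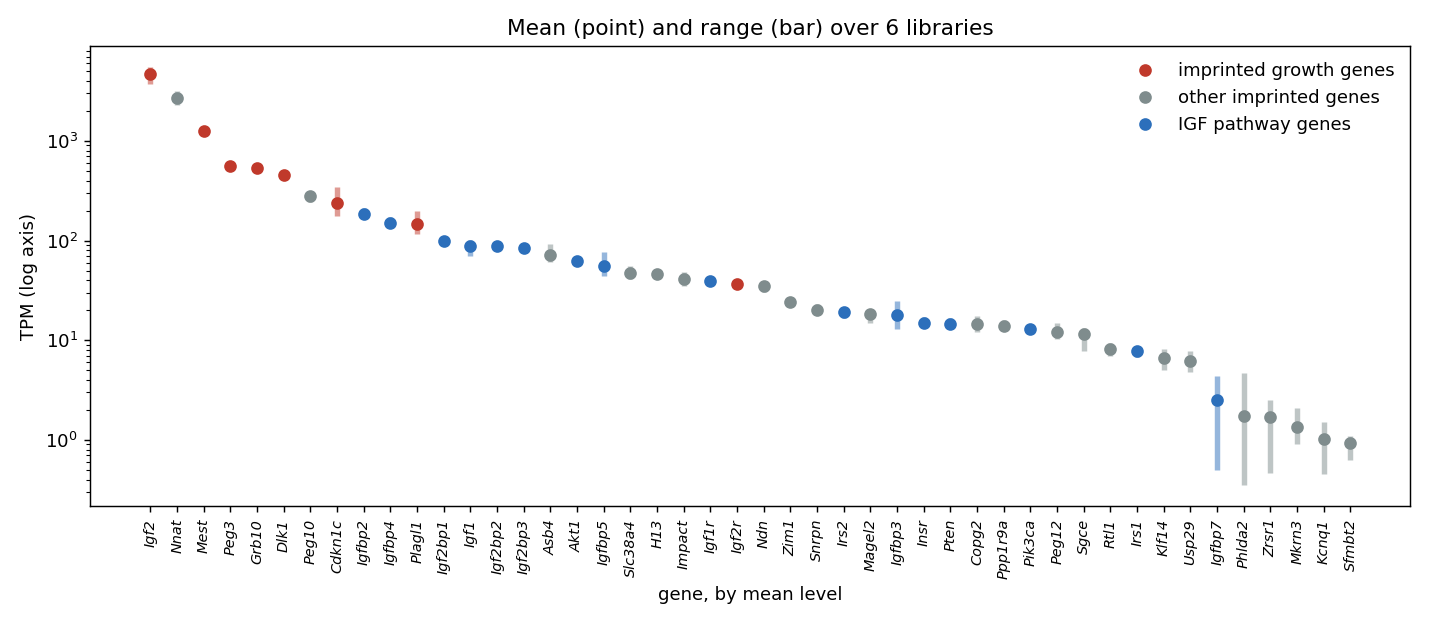
Mean level (point) and range over the 6 libraries (bar) of the 8 imprinted growth genes, other imprinted genes and genes of the insulin-like growth factor pathway that passed the filter, in TPM on a log axis (red, grey and blue). Igf2 stands highest at a mean of 4665 TPM, and Igf2r, at 36.6 TPM, is the lowest of the 8.

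The genes differed in how much they varied between embryos. The SD of log2(TPM + 1) over the 6 libraries was 0.053 for Igf2r, 0.077 for Dlk1, 0.082 for Grb10, 0.097 for Peg3 and 0.098 for Mest, at percentiles 1.63 to 13.8 of all tested genes. It was 0.20 for Igf2, 0.25 for Plagl1 and 0.32 for Cdkn1c, at percentiles 59.7, 73.1 and 83.2. The median over the 8 genes was 0.0975, against 0.175 over all 12152 tested genes and 0.124 over the 890 genes with a mean of at least 100 TPM, a class that holds 7 of the 8. The highest library exceeded the lowest 1.10-fold for Igf2r, 1.48-fold for Igf2, 1.71-fold for Plagl1 and 1.95-fold for Cdkn1c.

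The high values fell in few libraries. That labelled control of litter 3 was highest for Igf2, Plagl1, Igf2r and Cdkn1c, and that labelled control of litter 1 for Peg3, Mest and Grb10. These 2 libraries also had the highest median-of-ratios scaling factors (1.04 each), a measure of how high most genes read in a library. After that scaling the control-labelled library of litter 3 was still highest for Igf2, Plagl1 and Cdkn1c, while Igf2r and Mest were highest in other libraries.

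Igf2 encodes a secreted growth factor that signals through the IGF1 and insulin receptors. It was at 4496, 4291 and 3726 TPM in the mutant-labelled libraries of litters 1, 2 and 3, and at 5107, 4837 and 5530 TPM in those labelled control, the order of litters used for all genes. Every control-labelled library was above every mutant-labelled library, whereas libraries with low and high Msx1 overlapped. The log2 difference between the labels, mutant minus control, was -0.31 ± 0.10 (SE; limma, unadjusted p = 0.0126, adjusted p = 0.686), which did not pass.

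Mest encodes a membrane protein of the alpha/beta hydrolase fold and is known as a growth-promoting gene of embryonic mesoderm. Its levels were 1122, 1210 and 1204 TPM in the mutant-labelled libraries and 1338, 1288 and 1324 TPM in those labelled control. The labelled groups did not overlap. The log2 difference was -0.16 ± 0.07 (SE; limma, unadjusted p = 0.052, adjusted p = 0.726).

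Peg3, a zinc-finger protein gene that starts head to head with Usp29, was at 526, 544 and 527 TPM in the mutant-labelled libraries and at 614, 575 and 602 TPM in those labelled control. Here too the labelled groups did not overlap, and the log2 difference was -0.17 ± 0.07 (SE; limma, unadjusted p = 0.0411, adjusted p = 0.719). Usp29, on the other side of the shared start region, was at 4.76 to 7.86 TPM in the 6 libraries.

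Igf2, Mest and Peg3 are thus the 3 of 8 genes whose labelled groups were apart, all of them lower in the mutant-labelled libraries. They are paternally expressed, as are 5 of the 8 measured genes. Of all tested genes, 13.1% were apart in either direction and 10.4% in that direction, or 5.65% in that direction after median-of-ratios scaling, under which Igf2, Mest and Peg3 were again the members apart. That scaling brought Mest to -0.093 and Peg3 to -0.098, and quantile normalization brought Mest to -0.273. By Msx1 level the values of all 3 genes overlapped.

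The sequence just before a start site of each of these 3 genes is shown with its CG pairs, the sites of DNA methylation. Methylation was not measured here, and none of these stretches is taken to be the one that carries the parental mark. The stretches come from RefSeq's GRCm38.p6 start sites, read 5′ to 3′ on the gene's strand, without bases that GENCODE M21 annotates as exon, with CG pairs in capitals. For Igf2, which has several starts, the stretch is chr7:142657497-142657746 on the minus strand with 6 CG pairs. For Mest it is chr6:30737800-30738049 on the plus strand with 14, and for Peg3 chr7:6730432-6730577 on the minus strand, 146 bases with 5 CG pairs between its own start and that of Usp29.
Igf2: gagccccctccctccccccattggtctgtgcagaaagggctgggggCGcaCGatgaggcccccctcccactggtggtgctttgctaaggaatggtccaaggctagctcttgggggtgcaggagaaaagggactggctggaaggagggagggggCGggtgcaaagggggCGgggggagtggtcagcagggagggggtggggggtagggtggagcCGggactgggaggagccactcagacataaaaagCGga
Mest: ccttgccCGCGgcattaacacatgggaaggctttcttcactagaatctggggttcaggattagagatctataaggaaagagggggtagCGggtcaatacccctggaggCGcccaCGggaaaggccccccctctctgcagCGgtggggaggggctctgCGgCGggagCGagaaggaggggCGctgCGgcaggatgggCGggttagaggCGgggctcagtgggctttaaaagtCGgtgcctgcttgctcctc
Peg3: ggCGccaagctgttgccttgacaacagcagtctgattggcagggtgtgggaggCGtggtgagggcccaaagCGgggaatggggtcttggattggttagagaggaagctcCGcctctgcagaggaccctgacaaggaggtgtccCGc

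RefSeq's table held 15 windows of 250 bases upstream of a start for 8 of the 10 genes, H19 and Cdkn1c having no entry. CG pairs numbered 0 to 40 per window with a median of 10, against a median of 6 over all 32851 windows. The letters TAATTG or CAATTA (1 motif on both strands, the core that Msx and many other homeodomains bind) were in 0 of the 15 windows and in 7.17% of all windows, which says only that these letters are not in these windows.

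Plagl1 encodes a zinc-finger transcription factor that is known to act on other imprinted genes. It was at 138, 144 and 116 TPM in the mutant-labelled libraries and 140, 135 and 198 TPM in those labelled control. The control-labelled library of litter 3 stood apart and the other 5 lay between 116 and 144 TPM. The log2 difference was -0.23 ± 0.16 (SE; limma adjusted p = 0.757), but -0.058 without that library and -0.14 without the mutant-labelled one of litter 3.

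Dlk1 encodes a transmembrane protein of the Notch ligand type, and its gene is 77.7 kb from Meg3. Levels were 462, 494 and 426 TPM in the mutant-labelled libraries and 464, 436 and 468 TPM in those labelled control. The groups overlapped. Their log2 difference, 0.013 ± 0.081 (SE; limma adjusted p = 0.976), turned to -0.016 after quantile normalization.

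Among the maternally expressed genes, Cdkn1c showed the widest spread. It encodes p57, an inhibitor of cyclin-dependent kinases that stops cell division. Its levels were 240.0, 177 and 233 TPM in the mutant-labelled libraries and 206, 241 and 344 TPM in those labelled control. The labelled groups overlapped (log2 difference -0.26 ± 0.20, SE; limma adjusted p = 0.772), and the difference was -0.052 without the control-labelled library of litter 3, -0.123 without the mutant-labelled one of litter 2 and -0.423 without the control-labelled one of litter 1. Libraries with low and high Msx1 did not overlap.

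Igf2r encodes the receptor that takes IGF2 to lysosomes for breakdown. It was at 35.1, 36.6 and 36.9 TPM in the mutant-labelled libraries and 37.3, 35.2 and 38.7 TPM in those labelled control. The groups overlapped and the log2 difference was -0.03 ± 0.08 (SE; limma adjusted p = 0.934), which became 0.033 after median-of-ratios scaling and 0.029 after quantile normalization, and ran from -0.07 to -0.002 over left-out libraries. Igf2 exceeded Igf2r 101-fold to 143-fold, with the lowest ratio in the mutant-labelled library of litter 3 and the highest in that labelled control of litter 3.

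Grb10 encodes an adaptor protein that restrains signalling by the insulin and IGF1 receptors. It was at 496, 533 and 517 TPM in the mutant-labelled libraries and 572, 518 and 568 TPM in those labelled control. These ranges overlapped, and they differed by -0.10 ± 0.08 in log2 (SE; limma adjusted p = 0.771), or by -0.033 after median-of-ratios scaling.

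Between the labels, then, 7 of the 8 genes were lower in the mutant-labelled libraries, with Dlk1 the exception, and 6 of 8 after median-of-ratios scaling, where Igf2r was also above 0. The median log2 difference was -0.16. Over all tested genes 65.4% were lower and the median was -0.06, and over genes with a mean of at least 100 TPM 53.7% were lower with a median of -0.015. Limma called 0 of the 8 genes and 0 of 12152 genes (0.0%) at an adjusted p of 0.05, and 2 of the 8 and 817 of all tested genes (6.72%) had an unadjusted p under 0.05. Without the control-labelled library of litter 3 the median of the 8 was -0.069. No marker sum of a cell type was without overlap between the labels. Of single markers that passed the filter, Epcam, Krt8 and Cldn7 were without overlap and lower in the mutant-labelled libraries. Krt14 and Egfl7 were without overlap and higher, beside 13.1% of all tested genes without overlap in either direction. All 13 red blood cell markers were above 0, with a median of 0.404. The part of other cells in the label differences was not tested.

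**Figure D2:**
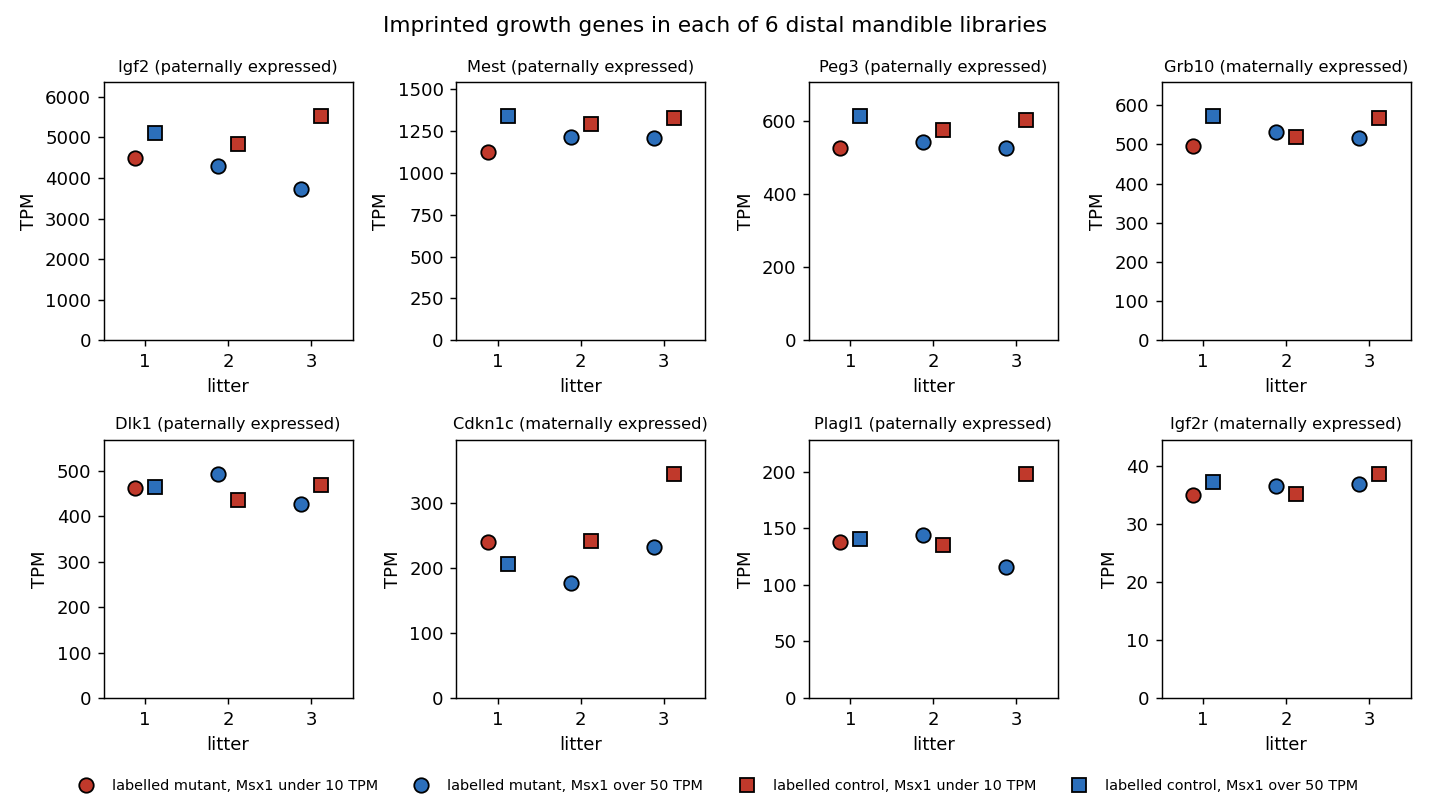
Level in TPM of each of the 8 genes in every library, by litter. Circles are mutant-labelled libraries and squares those labelled control, red for Msx1 under 10 TPM and blue for Msx1 over 50 TPM. For Igf2, Mest and Peg3 the squares lie above all circles, and for Cdkn1c the red points lie above all blue ones.

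**Figure D3:**
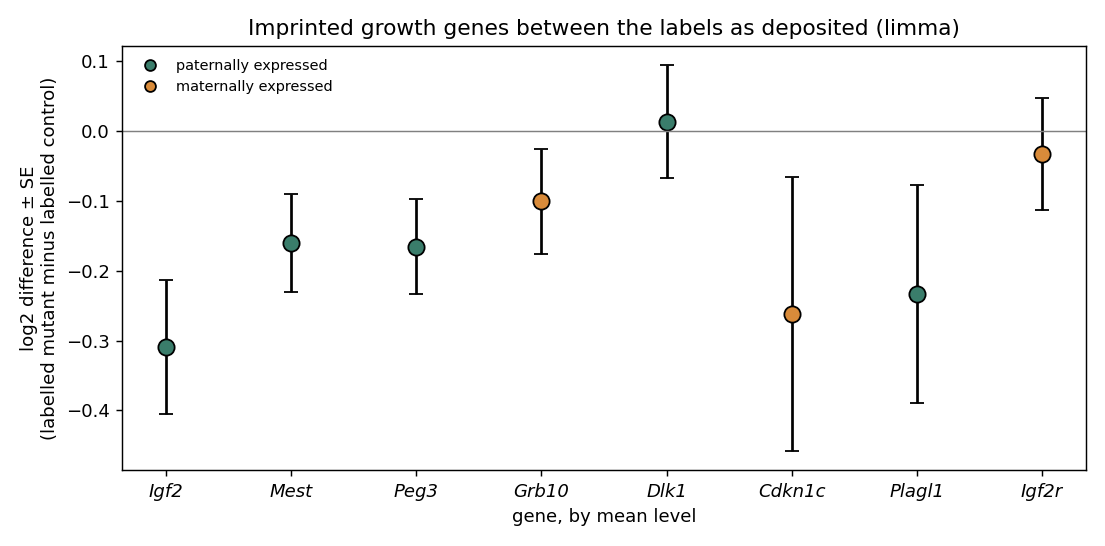
Log2 difference between the labels (mutant minus control, limma) of the 8 genes in order of mean level, with bars of 1 SE, green for paternally and orange for maternally expressed genes. Igf2 is lowest at -0.31, Dlk1 is above 0 (below 0 after quantile normalization), Igf2r is below 0 (above 0 after median-of-ratios scaling and quantile normalization), and no gene passed the adjusted threshold.

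By Msx1 level, Cdkn1c was the 1 gene of the 8 without overlap. It was at 240.0, 241 and 344 TPM in the libraries with Msx1 under 10 TPM and at 206, 177 and 233 TPM in their littermates. The lower-Msx1 embryo exceeded its littermate by 0.22, 0.44 and 0.57 log2 units in litters 1, 2 and 3. The nearest values of the 2 sides were 240.0 and 233 TPM. The sides were also apart after median-of-ratios scaling and after rescaling without mitochondrial and red blood cell genes. The latter gave differences of 0.186, 0.435 and 0.556 log2 units in litters 1, 2 and 3. Of all tested genes, 9.32% were without overlap in either direction and 4.36% were higher where Msx1 was low, and 1 of 8 is near the first of these shares.

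In the authors' deposited table, whose direction is not stated and in which Msx1 is at -5.19, Cdkn1c stood at 0.41 ± 0.12 in log2 (standard error as deposited; unadjusted p = 0.000778, adjusted p = 0.373). Since Msx1 is negative there, a positive value is a change opposite to that of Msx1. Between the labels Msx1 was at 1.41 ± 1.95 (SE; limma adjusted p = 0.887), so the groups of the authors' deposited table are not the labelled groups used here. For each of the 8 genes the deposited value lay within the range of the littermate differences, lower-Msx1 minus higher-Msx1 embryo. The study has only these 6 libraries, so the deposited values and the littermate differences are not independent of each other. By unadjusted p Cdkn1c ranked 30 in the authors' deposited table. The table's adjusted threshold of 0.05 was passed by 0 of the 8 genes and by 0.0961% of all genes with an adjusted p. Its unadjusted p was under 0.05 for 1 of the 8, Cdkn1c, and for 1.85% of all genes (0.875% with a positive value). The low-Msx1 libraries differed from their littermates in no marker sum without overlap: endothelial markers summed to 102 to 107 TPM against 101 to 119 TPM, epithelial ones to 160.1 to 184 against 161 to 186 TPM, and red blood cell ones to 7563 to 22592 against 6898 to 8796 TPM. Of skeletal muscle markers, Msc, Myf6, Myog and Pax7 were listed at 0 in at least 1 library, and the sum of all 8 was 7.15 to 10.6 against 8.79 to 11.1 TPM. The sums hide single markers that were apart. Of those that passed the filter, Hba-a1, Klf1, Cldn5, Prrx2 and Twist1 were without overlap and higher where Msx1 was low. Prrx1, Alx4 and Esrp1 were without overlap and lower, beside 9.32% of all tested genes without overlap in either direction. In the authors' deposited table all 13 red blood cell markers were positive, like Cdkn1c, with a median of 0.54. Within litters, the embryo with low Msx1 had the higher red blood cell sum in litters 1 (22592 against 6898 TPM) and 2 (9745 against 7866 TPM) and the lower one in litter 3 (7563 against 8796 TPM). The part of other cells in the Cdkn1c difference was not tested.

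Igf2 and Plagl1 were next in the authors' deposited table, at 0.19 ± 0.11 (unadjusted p = 0.096) and 0.22 ± 0.14 (unadjusted p = 0.124). Littermates disagreed for both genes. Igf2 in the lower-Msx1 embryo differed from its littermate by -0.18, 0.17 and 0.57 log2 units in litters 1, 2 and 3, and Plagl1 by -0.025, -0.093 and 0.77. Median-of-ratios scaling turned the Plagl1 difference of litter 1 to 0.076.

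The other 5 genes lay near 0 in the authors' deposited table. Peg3 was at 0.02 ± 0.09, Mest at -0.008 ± 0.095, Dlk1 at -0.015 ± 0.114, Igf2r at -0.024 ± 0.109 and Grb10 at -0.04 ± 0.09, with unadjusted p of 0.694 to 0.935. Their littermate differences had both signs: Peg3 had -0.22, 0.08 and 0.19 in litters 1, 2 and 3, and Mest -0.25, 0.09 and 0.14. Dlk1 had -0.005, -0.18 and 0.14, Grb10 -0.21, -0.04 and 0.14, and Igf2r -0.086, -0.056 and 0.069. In litter 1 the embryo with low Msx1 was lower for 7 of the 8 genes, all but Cdkn1c, but for 4 of 8 after median-of-ratios scaling, which turned Dlk1 to 0.096, Plagl1 to 0.076 and Igf2r to 0.012. In litter 3 it was higher for all 8 genes, or for 7 after that scaling, which turned Igf2r to -0.021. The embryo with low Msx1 is labelled mutant in litter 1 and control in litter 3.

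**Figure D4:**
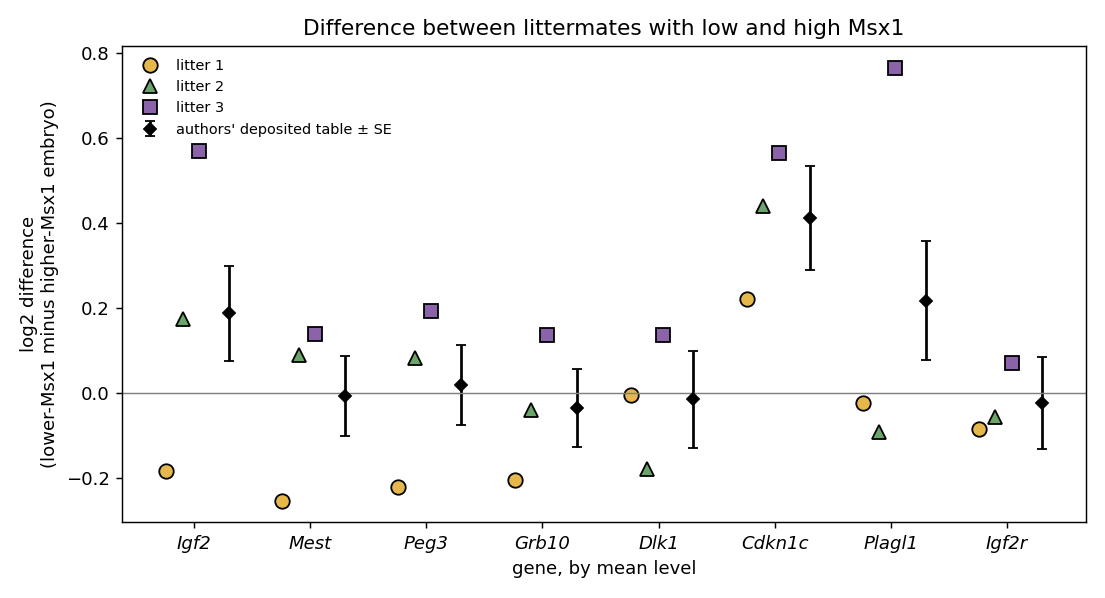
Log2 difference in TPM + 1 between littermates, lower-Msx1 minus higher-Msx1 embryo, for each of the 8 genes in each litter, beside the log2 fold change of the authors' deposited table with bars of 1 SE. Cdkn1c is the only gene of the 8 above 0 in all 3 litters, at 0.22, 0.44 and 0.57. The deposited values and the littermate differences rest on the same libraries and are not independent of each other.

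Other imprinted genes were read from lists of genes by parental class. Of 18 further paternally expressed genes, 16 had a row and 14 passed the filter. Of these, 8 were lower and 6 higher in the mutant-labelled libraries, with a median log2 difference of -0.06. Limma called 0 of them (1 at an unadjusted p under 0.05). Over all tested genes 65.4% were lower and 6.72% had an unadjusted p under 0.05. Median-of-ratios scaling and quantile normalization turned the median of the 14 to 0.008 and 0.002, with 7 of 14 lower under each. The most abundant was Nnat, a small membrane proteolipid gene, at 2301 to 3157 TPM, above every gene of the 8 but Igf2. Ndn, a MAGE-family growth suppressor gene, had the smallest p in limma, at 30.2, 33.6 and 32.3 TPM in the mutant-labelled libraries and 35.6, 38.1 and 39.1 TPM in those labelled control, without overlap. Its log2 difference was -0.22 ± 0.09 (SE; limma adjusted p = 0.719). Rtl1, a retrotransposon-derived gene of the Dlk1 and Meg3 domain, was at -0.24 ± 0.12 and Slc38a4, an amino acid transporter gene, at -0.14 ± 0.11 (SE; limma adjusted p = 0.727 and 0.779). Rtl1 was also without overlap between the labels, and 10.4% of all tested genes were without overlap and lower in the mutant-labelled libraries. Slc38a4 moved to -0.078 after median-of-ratios scaling, to -0.06 without the control-labelled library of litter 3 and to -0.092 without the mutant-labelled one of litter 1. It was at -0.218 and -0.219 without the mutant-labelled or the control-labelled library of litter 2.

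The authors' deposited table had 9 of these 14 genes negative and 5 positive, a median of -0.07 and 0 called. The smallest p-values were those of Magel2, Peg10 and Peg12, at -0.26 ± 0.17, -0.13 ± 0.11 and -0.20 ± 0.27 (unadjusted p = 0.13, 0.259 and 0.447). Magel2, a MAGE-family neighbour of Ndn, was at 15.9, 15.0 and 19.3 TPM where Msx1 was low and at 19.7, 19.6 and 20.5 TPM in the littermates, without overlap. By Msx1 level 9.32% of all tested genes were without overlap in either direction.

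Of 11 further maternally expressed genes, 9 had a row and 8 passed the filter. The mutant-labelled libraries were lower for 5 and higher for 3, with a median of -0.03, and limma called 0 (0 at an unadjusted p under 0.05). This direction did not hold after median-of-ratios scaling or quantile normalization, under which 2 of 8 were lower and the medians were 0.036 and 0.035. Asb4, a gene for an ankyrin-repeat subunit of ubiquitin ligases, was the most abundant, at 87.2 and 91.4 TPM in litter 1 and 60.6 to 64.5 TPM in litters 2 and 3. Both embryos of litter 1 were thus above all others. The smallest p-values in limma were those of H13 (0.09 ± 0.08), Klf14 (-0.182 ± 0.165) and Kcnq1 (-0.11 ± 0.27), with limma adjusted p of 0.809 to 0.932. With single libraries left out, Kcnq1 changed sign, and H13 and Klf14 changed in size but kept their sign. Without the mutant-labelled library of litter 3, H13 was at 0.053, Klf14 at -0.069 and Kcnq1 at 0.078. Klf14 was at -0.079 without the control-labelled library of litter 1 and at -0.30 without the mutant-labelled one of litter 2. Kcnq1 was at 0.03 without the control-labelled library of litter 2 and at -0.29 without either library of litter 1. H13 was at 0.159 after median-of-ratios scaling. In the authors' deposited table Kcnq1, a potassium channel gene in the Cdkn1c domain, Ppp1r9a and Phlda2 had the smallest p, at 1.07 ± 0.96, 0.13 ± 0.15 and 1.2 ± 1.5 (unadjusted p = 0.262, 0.394 and 0.422). Kcnq1 was at 1.421, 1.512 and 1.145 TPM where Msx1 was low and at 0.612, 0.945 and 0.454 TPM in the littermates, all near the filter's bound of 1 TPM. These sides did not overlap, with the higher values where Msx1 was low, as in 4.36% of all tested genes. Phlda2, a growth-restraining gene known from the placenta, ranged from 0.351 to 4.75 TPM and overlapped by Msx1 level.

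The IGF pathway around Igf2 was expressed at lower levels than Igf2 itself. Igf1, the other IGF ligand gene, was at 70.0 to 102 TPM, so that Igf2 exceeded it 47.7-fold to 65.9-fold. Igfbp2, an IGF-binding protein gene, was the most abundant of the 18 pathway genes, at 187, 186 and 210.1 TPM in the mutant-labelled libraries and 181, 171 and 175 TPM in those labelled control. Of the 16 that passed the filter, 14 were lower and 2 higher in the mutant-labelled libraries, with a median of -0.09. Limma called 0 of the 16 (2 at an unadjusted p under 0.05). Over all tested genes 65.4% were lower with a median of -0.06, and 6.72% had an unadjusted p under 0.05. After median-of-ratios scaling 9 of the 16 pathway genes were lower with a median of -0.03.

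Igfbp5, another binding protein gene, had the smallest p of the pathway in limma. It was at 44.47, 49.97 and 50.46 TPM in the mutant-labelled libraries and 61.2, 52.4 and 77.0 TPM in those labelled control, without overlap (log2 difference -0.37 ± 0.14, SE; limma adjusted p = 0.713). Without the control-labelled library of litter 3 it was -0.227. Igfbp7 was at -0.84 ± 0.35 with a highest level of 4.36 TPM, and Igf2bp3, a gene for an Igf2 mRNA-binding protein, at -0.14 ± 0.07 (SE; limma adjusted p = 0.719 and 0.727). Igfbp7 was at -0.489 without the mutant-labelled library of litter 1 and at -1.27 with a pseudocount of 0.1, and Igf2bp3 at -0.072 after median-of-ratios scaling. Insr and Igf2bp3 were, like Igfbp5, without overlap and lower in the mutant-labelled libraries, and Igfbp2 was without overlap and higher. Between the labels 13.1% of all tested genes were without overlap in either direction. Of the 16, 11 were negative in the authors' deposited table, with 0 called. Igf2bp1, Igf1 and Irs2 had the smallest p there, at -0.14 ± 0.10, 0.15 ± 0.12 and -0.14 ± 0.15 (unadjusted p = 0.157, 0.228 and 0.338). Igf2bp1, which binds Igf2 mRNA, was at 89.8, 98.6 and 93.9 TPM where Msx1 was low and 104.0, 104.4 and 102 TPM in the littermates, without overlap. The share of all tested genes without overlap by Msx1 level was 9.32%.

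Of 10 genes that set or keep imprints, 8 passed the filter, and Dnmt3l and Dppa3, known from germ cells and early embryos, were listed at 0 in each library. Of the 8, 7 were lower in the mutant-labelled libraries, with a median of -0.095 and 0 called by limma (0 at an unadjusted p under 0.05). Over all tested genes 65.4% were lower and the median was -0.06. After median-of-ratios scaling 4 of 8 were lower. Dnmt3a, a DNA methyltransferase gene, was the most abundant at 283 to 380 TPM. Zfp57, whose protein binds methylated imprinting control regions, was at 41.1, 29.5 and 39.8 TPM in the mutant-labelled libraries and 47.0, 38.4 and 53.3 TPM in those labelled control (log2 difference -0.32 ± 0.16, SE; limma adjusted p = 0.727). Trim28, its co-repressor, and Dnmt3a were both at -0.17 (limma adjusted p = 0.734 and 0.743). Zfp57 moved to -0.176 without the mutant-labelled library of litter 2, Trim28 to -0.092 without that of litter 3, and Dnmt3a to -0.074 without the control-labelled library of litter 3. After median-of-ratios scaling Trim28 and Dnmt3a were at -0.10. Ctcf was at 64.8, 68.6 and 69.7 TPM where Msx1 was low and at 70.9, 70.2 and 69.8 TPM in the littermates, without overlap. By Msx1 level 9.32% of all tested genes were without overlap in either direction. In the authors' deposited table Dnmt3a, Zfp57 and Uhrf1 had the smallest p of the list, at 0.15 ± 0.11, 0.21 ± 0.16 and -0.12 ± 0.12 (unadjusted p = 0.164, 0.208 and 0.337).

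The genes whose profile over the 6 libraries was most like that of Igf2, by the root mean square difference of centred log2(TPM + 1) among 6873 other genes with a mean of at least 10 TPM, were Trmt10a, Ppp3ca and Aldh18a1. Their distances were 0.0372, 0.0386 and 0.0418. Trmt10a, a tRNA methyltransferase gene, was at 29.2, 28.6 and 25.4 TPM in the mutant-labelled libraries and 32.6, 31.6 and 37.9 TPM in those labelled control. None of the 3 is in the lists above. These distances are a description only.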

How the data were processed

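For each of the 6 libraries the authors deposited 1 TPM value per gene, per the file headers. Salmon 1.5.2, DESeq2 and mm10 are named in the submitters' processing notes, without roles or settings. The authors' deposited table gives, per the file headers, a base mean (a signal, in DESeq2 output the mean of size-factor-scaled counts), a log2 fold change with its standard error, a Wald score, and p-values. Missing values in it were left missing.

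The labelled groups were compared with limma 3.58.1 (R 4.3.3; trend and robust moderation) on log2(TPM + 1), over the 12152 genes that reached 1 TPM in 3 or more libraries, two-sided, with Benjamini-Hochberg adjustment over all of them and a threshold of 0.05. The method was tested on simulated data. No count test was run. Fold changes on this scale understate changes of low genes. Each library is 1 embryo, and each litter gave 1 embryo of each label per the design text, so litter pairs the libraries. Deviations from the label means of littermates had r of -0.055, -0.028 and -0.026 across genes. A fit with litter as a block, other pseudocounts, filters and scalings, and leaving out each library were alternatives to the label fit. The authors' table at an unadjusted p was an alternative to its own adjusted threshold only, as its groups are not the labelled groups.

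Members and lists were chosen with earlier results of these data known. Named genes are the members, the 3 smallest p of each other list in limma and in the authors' table, its most abundant gene, the 3 genes nearest to Igf2, and Msx1. Genes with overlapping annotations, marker genes and some listed genes whose groups were without overlap were named in addition.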

Additional observations from a re-analysis of the deposited data

How the results depend on the processing

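Limma called 0 of the 8 imprinted growth genes under all alternatives run. Over all genes it called 0, also with the replicate block of litter (0), and 0 to 1 when each library was left out: Rpl29 without the mutant-labelled library of litter 1 and Gm5244 without the control-labelled one of litter 1. The replicate block changed no other call. The median log2 difference of the 8 genes became -0.096 after median-of-ratios scaling and ran from -0.184 to -0.069 over the left-out libraries. That of the other paternally expressed genes ran from -0.158 to -0.037 over them (0.008 and 0.002 after median-of-ratios scaling and quantile normalization), and that of the other maternally expressed ones from -0.079 to 0.029 (0.036 and 0.035). The IGF pathway median was -0.03 after median-of-ratios scaling, -0.035 after quantile normalization and -0.112 to -0.035 over left-out libraries, and that of the imprint maintenance genes -0.031 and -0.04 under the 2 scalings. Dlk1 turned to -0.016 after quantile normalization (-0.039 to 0.068 over left-out libraries), and Igf2r to 0.033 and 0.029 after median-of-ratios scaling and quantile normalization. Kcnq1 ran from -0.29 to 0.078. The cause of these shifts was not tested. Leaving out a library can only raise a count of genes without overlap. By Msx1 level it gave 1 to 2 of the 8 genes, beside 18.1% to 20.3% of all tested genes: Igf2 joined Cdkn1c without the control-labelled library of litter 1, and Igf2r, lower with low Msx1, without that of litter 3. Between the labels it gave 3 to 5 of the 8, beside 21% to 30.2% of all tested genes, with both highest values (5, Igf2r and Grb10 added, and 30.2%) without the control-labelled library of litter 2. The label counts were alternatives chosen after seeing the data. At an unadjusted p of 0.05 the authors' table held 1 of the 8, against 0 at its own adjusted threshold. The depth behind the TPM is unknown, and the labelled groups mix low and high Msx1.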
